A study of Homo sapiens with 27 samples.

Results

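The genes described here were 10 immediate early transcription factors and regulators, listed by name: FOS, FOSB, FOSL1, JUN, JUNB, EGR1, ATF3, IER2, IER3 and MYC. All array probes annotated to them were taken, which gave 11 probes for 9 of the 10 genes, out of 18666 genes on the array. No probe was matched to IER3 in the annotation used, and IER3 was not analysed here. FOS, FOSB, FOSL1, JUN, JUNB, EGR1 and IER2 had 1 probe each, and ATF3 and MYC had 2 each, of which the brighter on average over all arrays stood for the gene.

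Immediate early genes are transcribed within minutes of a growth factor, serum or stress signal from factors already present in the cell, with no need for new protein synthesis. FOS and JUN family proteins pair through leucine zippers to form AP-1, EGR1 is a zinc finger factor, ATF3 is a stress-induced partner of the same zipper class, and MYC pairs with MAX to drive growth and metabolic genes. Their transcripts are short-lived, so a level in growing cells reflects ongoing transcription as well as decay.

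RNA from HT1080, derived from a human fibrosarcoma, studied as fibroblasts and kept in medium with serum, was hybridised to 27 Illumina bead arrays that fall into 8 groups. Stable lines, selected with Geneticin and enriched by sorting for green fluorescent protein (GFP), expressed NET29 (n = 4), NET39 (n = 4) or NET47 (n = 3) in full length and fused to GFP. These are transmembrane proteins of the nuclear envelope with preferential expression in fat, muscle and liver. Other cells were, by the sample labels, transfected transiently, with only the nucleoplasmic part of 1 of the proteins, which is soluble (n = 3 for each), or with GFP targeted to the nucleus by a localisation signal (NLS-GFP, n = 3), and untreated cells (n = 4) received no construct. The study's text in one place calls the fragment cells stable, so the mode of expression given here for the fragments follows the labels alone. The study asked whether changes in expression depend on anchoring of the protein in the envelope. The lines were set against untreated cells and the fragments against NLS-GFP cells, so a line also differed from its control in GFP, selection and sorting, and by the labels a line and its fragment also differed in the mode of expression, and these cannot be told apart from the protein or its form. For the stable lines the study describes RNA of 3 separate passages, whereas NET29 and NET39 have n = 4 here. The sources used here do not give the number of independent lines per protein, nor for every group whether replicates were separate cultures. The p-values therefore measure the spread between these arrays, and in bulk RNA a smaller share of responding cells cannot be told apart from less RNA per cell.

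The arrays correlated with each other at 0.968 to 0.996 over all probes. Before normalisation the median intensity was 54.78 to 61.91 on the NET29 fragment arrays. It was 68.49 to 73.28 on the NLS-GFP arrays and 66.41 to 73.53 on the NET39 and NET47 fragment arrays. The stable lines lay at 46.93 to 54.05 and untreated cells at 51.19 to 58.93. The part of this difference in values that change under median scaling was not tested. The first principal component (36.2% of the variance) placed the transient arrays between 9.67 and 31.2 and the stable and untreated arrays between -29.0 and -7.70, except that untreated replicate 4 lay at 22.2, among the transient arrays. On the second component (17.8%), untreated replicate 2 and NET47 line replicate 3 stood apart at 43.1 and 38.99. The gene for NET29, TMEM120A, was 1.33 ± 0.12 higher on the log2 scale (SE) in the NET29 line than in untreated cells, and TM7SF2, for NET47, was 5.98 ± 0.10 higher in the NET47 line, whereas the probe for PLPP7, which encodes NET39, read -0.30 ± 0.07 in the NET39 line. The PLPP7 probe was above background on 8 of 27 arrays, against 27 for TMEM120A and 26 for TM7SF2. Whether these probes lie within the transfected sequences was not examined, so the PLPP7 value does not check the NET39 label. With its own fragment against NLS-GFP cells, TMEM120A read 0.32 ± 0.14 (adjusted p = 0.269, limma), TM7SF2 -0.03 ± 0.11 and PLPP7 -0.01 ± 0.08. None of these values checks the fragments. VIM, CD44, SPARC and LGALS1, markers of mesenchymal cells, were above background on all 27 arrays, S100A4 and COL5A1 on 26, FN1 on 7 and THY1 on 0. Of the epithelial markers EPCAM, KRT19 and CLDN3 were above it on 0 arrays, CDH1 and ESRP1 on 1 and CLDN4 on 6. Of the blood markers PTPRC was above it on 0, CD3E on 1, LYZ on 5, CD3D on 9 and CD14 on 16, and of the endothelial markers CDH5 and VWF on 0 and PECAM1 on 19. Of the 8 mesenchymal markers, 3 were lower in the NET29 line than in untreated cells (COL5A1 -1.39, SPARC -0.91 and S100A4 -0.70 on the log2 scale). In the NET39 line 2 were lower (COL5A1 -1.44 and SPARC -1.09). COL5A1 was also lower in NLS-GFP than in untreated cells (-0.88, adjusted p = 0.00327, limma). Of the 5 blood markers 1, CD3D, was higher in the NET47 line than in untreated cells. It was above background on 3 of 3 NET47 line arrays and 3 of 3 NET47 fragment arrays. In untreated cells it was above it on 1 of 4 arrays, and in NLS-GFP cells on 0 of 3. The part of these differences in the results below was not tested.

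Promoter sequences are shown for FOS, FOSB, JUN and EGR1 as examples that hold a match to the letters marked below. ATF3, whose upstream window held a match as well, is not shown. They were read from RefSeq windows of GRCh38.p14, in which 7 of the listed genes had 8 windows that could be used, and each run is the 150 bases before the transcription start, 5′ to 3′ on the gene's strand. The windows are chr14:75278678-75278827 (plus strand) for FOS, chr19:45467846-45467995 (plus strand) for FOSB, chr1:58784048-58784197 (minus strand) for JUN and chr5:138465329-138465478 (plus strand) for EGR1. Capitals mark matches, on either strand, to TGACGT (the core bound by CREB and ATF factors), TGACNTCA or TGANTCA (the longer and shorter letters bound by AP-1), or a CArG box (bound by serum response factor).
FOS: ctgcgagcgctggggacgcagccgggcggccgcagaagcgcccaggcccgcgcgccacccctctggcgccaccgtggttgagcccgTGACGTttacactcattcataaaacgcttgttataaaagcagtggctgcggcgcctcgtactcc
FOSB: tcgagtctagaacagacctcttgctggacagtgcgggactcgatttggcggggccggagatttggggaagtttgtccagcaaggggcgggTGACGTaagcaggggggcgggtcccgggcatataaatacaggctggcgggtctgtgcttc
JUN: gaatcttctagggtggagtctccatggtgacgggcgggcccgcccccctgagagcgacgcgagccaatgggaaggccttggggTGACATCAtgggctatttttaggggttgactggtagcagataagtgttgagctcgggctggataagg
EGR1: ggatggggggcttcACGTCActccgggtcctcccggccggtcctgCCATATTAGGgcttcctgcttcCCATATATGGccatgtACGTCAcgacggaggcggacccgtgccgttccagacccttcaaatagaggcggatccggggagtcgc

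FOS and FOSB each held TGACGT, beginning 64 and 60 bases before the start, and JUN held TGACATCA 67 bases before it. EGR1 held 2 matches to TGACGT (136 and 67 bases before the start, read from the other strand) and 2 CArG boxes (105 and 83 bases before it). The upstream window of ATF3 held TGACATCA 123 bases before its start, and no such match lay in the downstream ATF3 window or in those of JUNB and IER2. Over the 250 bases before the start of 35116 promoters in the same table, TGACGT was present in 7.1%, TGACNTCA in 6.87%, TGANTCA in 6.57% and a CArG box in 1.16%. The TATA letters TATAAA (present in 10.7%), the GC box GGGCGG (42.6%) and the EGR1 site GCGTGGGCG (0.72%) were searched as well and are not marked. TGACGT and TGACNTCA may overlap in a promoter, and a match describes letters, not binding. FOS held 0 CArG boxes within the 250 bases searched. Sites further upstream were not searched in any gene, so the absence of a match holds for this stretch only.

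Of the immediate early genes, MYC was the only one that passed the threshold in a comparison with a control, and it was higher in the NET39 line than in untreated cells. The threshold was an adjusted p under 0.05 (limma, Benjamini-Hochberg over all 48803 probes) with a log2 fold change beyond 0.5. In the NET29 line 0 of the 9 genes passed, where 3.35% of all genes did, and in the NET47 line 0 of 9 passed, where 1.22% did. In the NET39 line 1 of 9 passed, where 3.79% of all genes did. With the soluble fragments against NLS-GFP cells 0 of 9 passed for NET29, NET39 and NET47, where 1.33%, 0.145% and 1.17% of all genes did, and in NLS-GFP against untreated cells 0 of 9 passed, where 1.11% of all genes did.

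At an unadjusted p under 0.05 the same limma model gave 3 of the 9 genes in the NET29 line, 2 in the NET39 line and 1 in the NET47 line, where 17.8%, 18.1% and 10.2% of all genes were under it. It gave 4 of 9 with the NET29 fragment, 3 with the NET39 fragment and 2 with the NET47 fragment, where 17.9%, 11.6% and 9.54% of all genes were under it, and 4 of 9 in NLS-GFP cells, where 18.9% were. The median log2 fold change of the 9 genes was -0.01 in the NET29 line, 0.14 in the NET39 line and -0.03 in the NET47 line, and that of all genes was 0.00 in each. With the NET29, NET39 and NET47 fragments it was -0.03, 0.06 and -0.17, against -0.01, 0.00 and 0.00 over all genes, and in NLS-GFP cells 0.07, against 0.00. The plot of effects shows that the 9 genes of a line lay on both sides of 0.

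**Figure D1:**
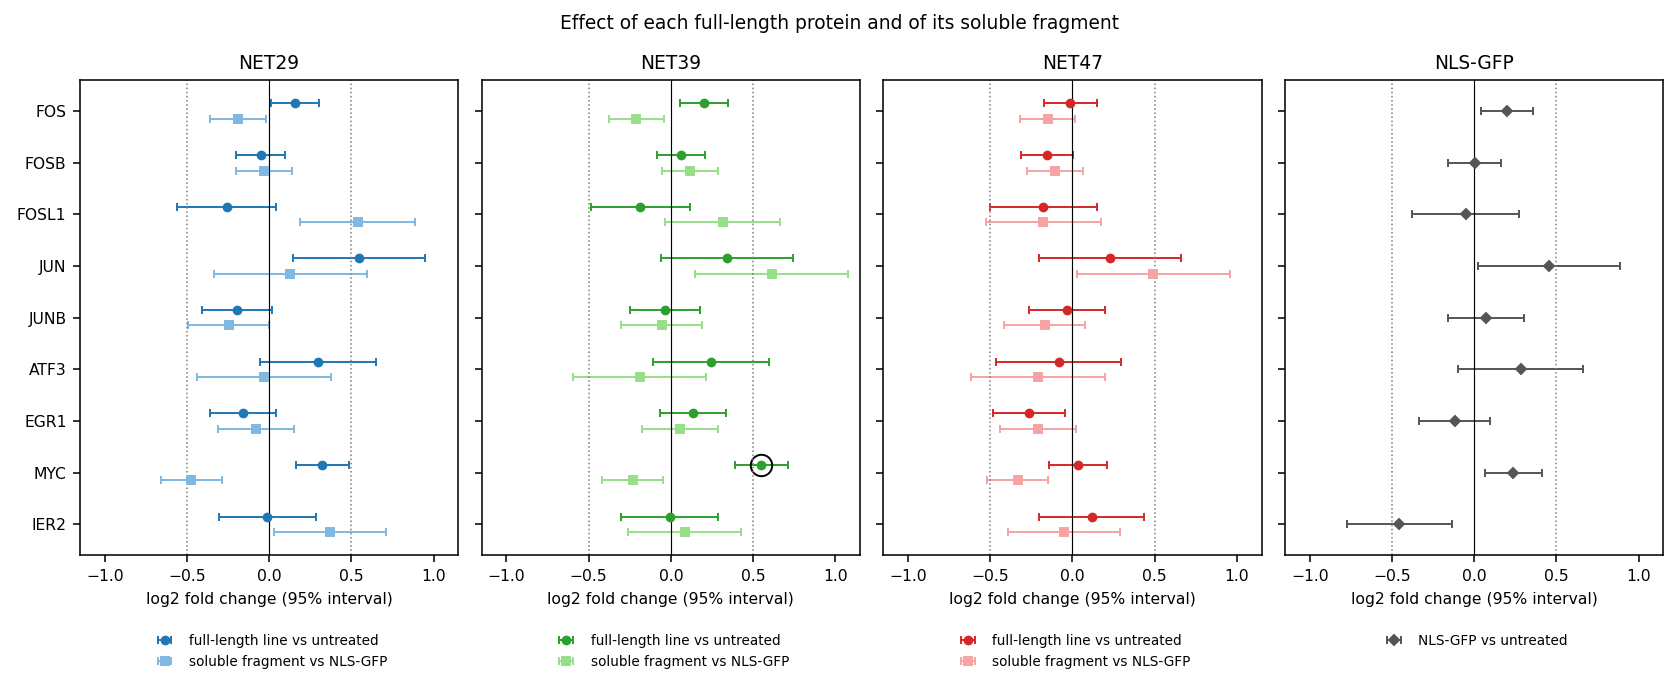
Log2 fold change (x axis, with 95% interval from limma) of each immediate early gene (y axis) for NET29, NET39, NET47 and NLS-GFP, with circles for full-length lines against untreated cells, squares for soluble fragments against NLS-GFP cells and diamonds for NLS-GFP against untreated cells. Dotted lines mark 0.5 and -0.5, and the ringed point, MYC in the NET39 line at 0.55, is the only value past the threshold.

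The genes differed in how far they stood above the array background, taken as the 95th percentile of 607 probes of gene families assumed to be silent in these cells. That assumption was not tested. FOSL1, JUN, JUNB, IER2, the main ATF3 probe and both MYC probes were above it on all 27 arrays and FOSB on 26, whereas EGR1 was above it on 15 and FOS on 13. For FOS and EGR1 small differences were therefore compressed by the background, and arrays under it give only an upper limit. The spread between arrays of a group was widest for JUN (SD 0.304, above that of 93.7% of 11896 genes detected on at least 3 arrays), followed by ATF3 (0.265) and FOSL1 (0.227), and that of MYC (0.112) was above only 15.9% of them.

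**Figure D2:**
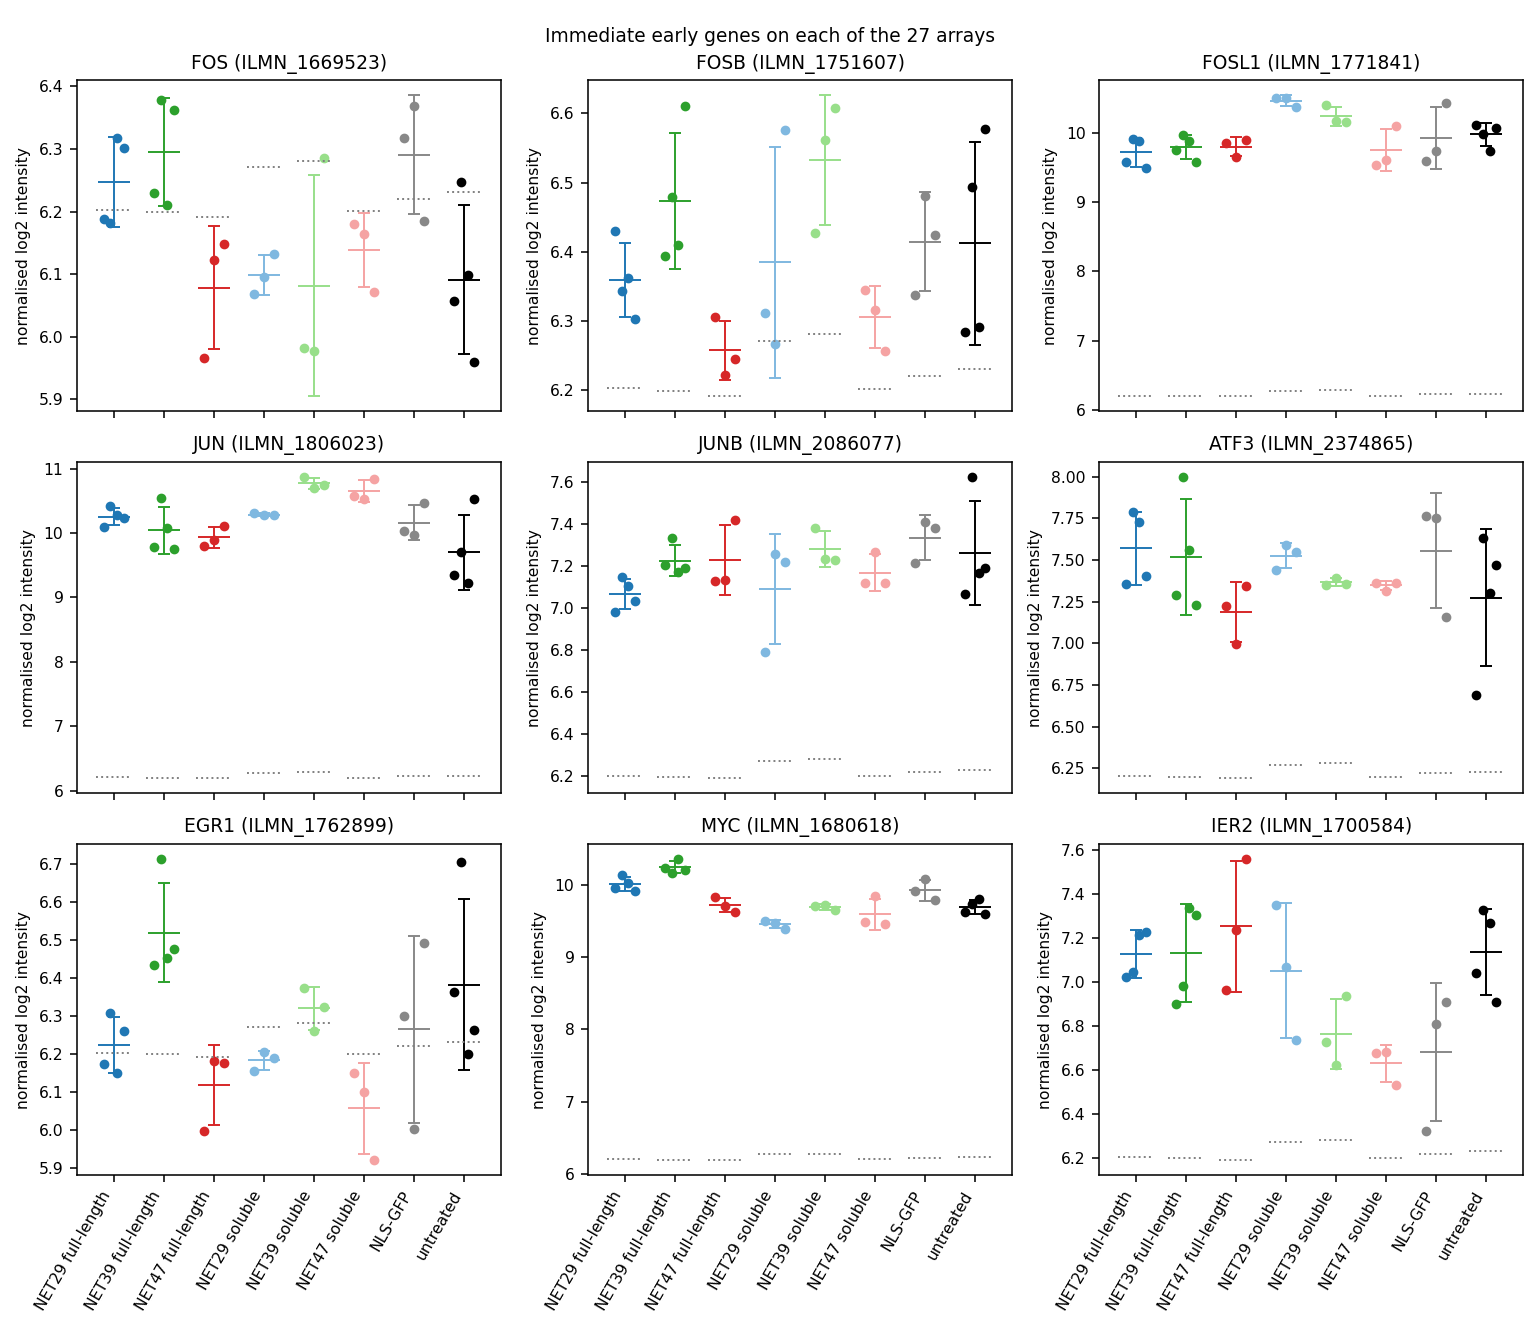
Normalised log2 intensity (y axis) of the main probe of each of the 9 immediate early genes on every array, in the 8 groups (x axis), with points for arrays, long lines for group means, bars for the SD and short dotted lines for the highest background level among the arrays of the group. MYC was highest in the NET39 line (10.16 to 10.36), JUN in untreated replicate 4 (10.52) stood above the other untreated arrays, and FOS and EGR1 lay close to background. Each panel has its own axis, and levels of different probes cannot be compared.

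FOS, the transcriptional partner of JUN in classical AP-1, was near background in every group. In the NET39 line it read 6.23, 6.38, 6.21 and 6.36, and in the NET29 line 6.19, 6.18, 6.32 and 6.30, against 6.06, 6.25, 6.10 and 5.96 in untreated cells. Both sets overlapped the untreated arrays, and the log2 fold changes were 0.20 ± 0.07 (adjusted p = 0.152) and 0.16 ± 0.07 (adjusted p = 0.384, limma, SE throughout). With the NET29 fragment FOS read 6.07, 6.10 and 6.13 and with the NET39 fragment 5.98, 5.98 and 6.29, against 6.32, 6.37 and 6.18 in NLS-GFP cells. The NET29 fragment arrays lay below all NLS-GFP arrays and the NET39 fragment arrays overlapped them, with log2 fold changes of -0.19 ± 0.08 (adjusted p = 0.282) and -0.21 ± 0.08 (adjusted p = 0.419). The effect of the full-length protein minus that of its fragment was 0.41 ± 0.11 for NET39 (adjusted p = 0.062) and 0.35 ± 0.11 for NET29 (adjusted p = 0.0826). Without NET39 fragment replicate 3, the highest of its group, the NET39 value was 0.52 (adjusted p = 0.00889), past the threshold. That array was the 1 of 3 NET39 fragment arrays on which FOS was above background. FOS was above it on 0 of 3 NET29 fragment arrays, 1 of 4 untreated arrays and 2 of 3 NLS-GFP arrays. In the NET29 and NET39 lines it was above it on 4 of 4 arrays each. These differences therefore rest in part on values under background.

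FOSB, a FOS relative induced with similar kinetics, lay just above background, between 6.22 and 6.61 on all arrays. Its group means ran from 6.26 in the NET47 line to 6.53 with the NET39 fragment, and every group overlapped the next in that order. None of its comparisons passed, the lowest adjusted p being 0.247 for the NET47 against the NET39 fragment (-0.23 ± 0.08).

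FOSL1, which encodes Fra-1, a FOS family member that stays expressed in many transformed and migrating cells, was well above background everywhere and was highest with the NET29 fragment. It read 10.52, 10.52 and 10.38 with the NET29 fragment, 10.40, 10.18 and 10.16 with the NET39 fragment and 9.55, 9.61 and 10.10 with the NET47 fragment, against 9.61, 9.75 and 10.44 in NLS-GFP cells. NLS-GFP replicate 3 lay among the NET29 and NET39 fragment arrays and the other 2 NLS-GFP arrays lay below them. The log2 fold change with the NET29 fragment was 0.54 ± 0.17 (adjusted p = 0.121), with an interval of 0.19 to 0.89, and without NLS-GFP replicate 3 it was 0.79 (adjusted p = 0.00778). Under median scaling it was 0.01 (adjusted p = 0.99). With the NET39 fragment it was 0.32 ± 0.17 (adjusted p = 0.618) and with the NET47 fragment -0.18 ± 0.17 (adjusted p = 0.911).

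In the stable lines FOSL1 read 9.59, 9.92, 9.89 and 9.497 for NET29, 9.75, 9.97, 9.89 and 9.58 for NET39 and 9.86, 9.65 and 9.91 for NET47, against 10.12, 9.99, 9.75 and 10.08 in untreated cells. The lines overlapped the untreated arrays, with log2 fold changes of -0.26 ± 0.15, -0.19 ± 0.15 and -0.18 ± 0.16 (adjusted p = 0.557, 0.75 and 0.96). The effects of full-length NET29 and of its fragment on FOSL1 thus had opposite signs, and their difference was -0.80 ± 0.22 (adjusted p = 0.0486). That contrast gave 2 of the 9 genes past the threshold, FOSL1 and MYC, where 5.37% of all genes passed. The FOSL1 call was kept under 14 of 38 alternatives, with values between -1.05 and -0.18, and under median scaling of the arrays it was -0.18 (adjusted p = 0.912). For NET39 the FOSL1 difference was -0.50 ± 0.22 (adjusted p = 0.435), and without NLS-GFP replicate 3 it was -0.75 (adjusted p = 0.0474).

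Between fragments FOSL1 was lower with NET47 than with NET29, by -0.72 ± 0.17 on the log2 scale (adjusted p = 0.0166), and the arrays of the 2 groups did not overlap. This was 1 of the 9 genes, where 3.35% of all genes passed, and it took the opposite sign, 0.18 (adjusted p = 0.763), under median scaling. The median of all genes in that comparison was 0.18 under median scaling and 0.01 under quantile normalisation. Without NET29 fragment replicate 1 or 2, or NET47 fragment replicate 1 or 2, the value lay between -0.69 and -0.61 and its adjusted p between 0.0622 and 0.112. NET39 against NET29 fragments and NET47 against NET39 fragments gave 0 of 9 genes, where 0.884% and 1.9% of all genes passed.

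JUN, the AP-1 subunit that binds DNA with FOS proteins or as a homodimer, was the most variable of the genes between arrays, and its control group was divided. In the NET29 line JUN read 10.09, 10.41, 10.27 and 10.23, in the NET39 line 9.78, 10.55, 10.09 and 9.76, and in the NET47 line 9.79, 9.89 and 10.11, against 9.35, 9.71, 9.23 and 10.52 in untreated cells. Every array of the lines was above the first 3 untreated arrays, and each of them but NET39 line replicate 2 was below untreated replicate 4.

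With all arrays JUN did not pass in any line: 0.55 ± 0.19 for NET29 (adjusted p = 0.177), 0.34 ± 0.19 for NET39 (adjusted p = 0.568) and 0.23 ± 0.21 for NET47 (adjusted p = 0.964). Without untreated replicate 4, the array that lay among the transient arrays on the first component, JUN was past the threshold in the NET29 line (0.82, adjusted p = 0.00123) and in the NET39 line (0.61, adjusted p = 0.0186), and not in the NET47 line (0.50, adjusted p = 0.257). NLS-GFP cells read 10.03, 9.97 and 10.47 and showed the same dependence, with 0.45 ± 0.21 against untreated cells (adjusted p = 0.302) and 0.73 (adjusted p = 0.00783) without that array. These 4 comparisons share the untreated arrays. The values with each array left out show that no other single array moved JUN past the threshold in them.

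**Figure D3:**
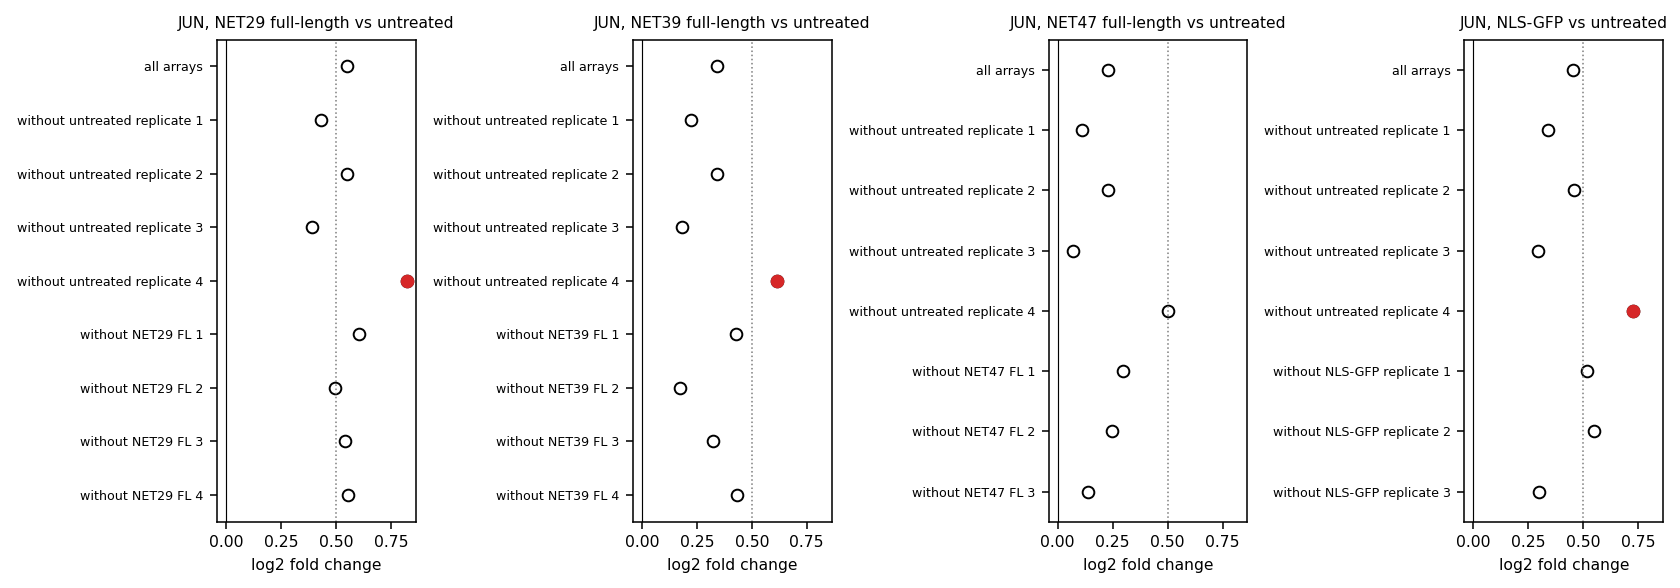
Log2 fold change of JUN (x axis) in the NET29, NET39 and NET47 full-length lines (FL) and in NLS-GFP cells against untreated cells, with all arrays and with each array of the 2 groups left out in turn (y axis). Filled red points pass the threshold, the dotted line marks 0.5, and only the settings without untreated replicate 4 are filled, at 0.82 for NET29, 0.61 for NET39 and 0.73 for NLS-GFP.

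Among the transient groups JUN was highest with the NET39 and NET47 fragments. It read 10.87, 10.69 and 10.75 with the NET39 fragment and 10.57, 10.53 and 10.84 with the NET47 fragment, against 10.03, 9.97 and 10.47 in NLS-GFP cells, and neither set overlapped the control. The log2 fold changes were 0.61 ± 0.22 (adjusted p = 0.37) and 0.49 ± 0.22 (adjusted p = 0.619), where intervals of 0.15 to 1.08 and 0.03 to 0.96 lay above 0 without the adjustment. In a model of only the NET39 fragment and NLS-GFP arrays JUN passed (0.61, adjusted p = 0.0337). With the NET29 fragment it read 10.31, 10.27 and 10.28, within the range of NLS-GFP cells (0.13 ± 0.22, adjusted p = 0.857, and -0.39 under median scaling).

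JUNB, a JUN relative that is a weaker activator, ranged from 6.79 to 7.62 and differed little between groups. Group means ran from 7.07 in the NET29 line to 7.34 in NLS-GFP cells, and each group overlapped the next. Its log2 fold changes against controls lay between -0.25 with the NET29 fragment (adjusted p = 0.356) and 0.07 in NLS-GFP cells (adjusted p = 0.803).

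ATF3 is induced by amino acid shortage, unfolded proteins and DNA damage, as well as by serum. Its 2 probes behaved differently: ILMN_2374865 was above background on 27 arrays and ILMN_1661109, annotated to another transcript, on 0. By the first, ATF3 read 7.36, 7.79, 7.73 and 7.40 in the NET29 line and 7.29, 7.997, 7.56 and 7.23 in the NET39 line, against 6.69, 7.63, 7.30 and 7.47 in untreated cells. Untreated replicate 1 was the lowest of the 27 arrays, and the groups overlapped. The log2 fold changes were 0.30 ± 0.17 (adjusted p = 0.568) and 0.25 ± 0.17 (adjusted p = 0.689), and in NLS-GFP cells (7.76, 7.75 and 7.16) 0.28 ± 0.18 (adjusted p = 0.486).

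EGR1, the zinc finger factor with the 2 CArG boxes above, was above background on all 4 arrays of the NET39 line and of untreated cells and on 0 of the NET47 line, the NET29 fragment and the NET47 fragment. It read 6.43, 6.71, 6.45 and 6.48 in the NET39 line and 5.998, 6.18 and 6.18 in the NET47 line, against 6.36, 6.71, 6.20 and 6.26 in untreated cells. The NET47 line did not overlap untreated cells but its difference did not pass (-0.26 ± 0.10, adjusted p = 0.511). The NET47 line minus the NET39 line was -0.40 ± 0.10 (adjusted p = 0.0471), within the adjusted p limit and under the limit of 0.5, and with a smaller offset in the background correction (16 instead of 50) it was -0.70 (adjusted p = 0.0275) and passed both. The offset draws differences near background towards 0.

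MYC, the growth factor-responsive regulator of ribosome and metabolic genes, had the lowest adjusted p of the 9 genes. By its brighter probe, ILMN_1680618, it read 10.23, 10.16, 10.36 and 10.21 in the NET39 line and 9.96, 10.14, 10.03 and 9.92 in the NET29 line, against 9.62, 9.73, 9.81 and 9.59 in untreated cells. Every array of both lines lay above every untreated array. MYC was 0.55 ± 0.08 higher on the log2 scale in the NET39 line (1.47-fold, adjusted p = 4.65e-05) and 0.32 ± 0.08 higher in the NET29 line (1.25-fold, adjusted p = 0.0174), which is under the limit of 0.5. Under median scaling of the arrays in place of quantile normalisation, this probe gave 0.62 in the NET39 line and was not past the threshold (adjusted p = 0.34). In the NET47 line it read 9.82, 9.71 and 9.63, overlapping the untreated arrays (0.03 ± 0.08, adjusted p = 0.998, interval -0.14 to 0.21).

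With the soluble fragments MYC did not pass the threshold, and its fitted values lay below NLS-GFP cells. It read 9.49, 9.47 and 9.39 with the NET29 fragment, 9.71, 9.72 and 9.65 with the NET39 fragment and 9.48, 9.84 and 9.46 with the NET47 fragment, against 9.91, 10.08 and 9.79 in NLS-GFP cells. The NET29 and NET39 fragment arrays lay below all NLS-GFP arrays and the NET47 fragment arrays overlapped them. The log2 fold changes were -0.47 ± 0.09 (adjusted p = 0.0077, under the limit of 0.5), -0.23 ± 0.09 (adjusted p = 0.406) and -0.33 ± 0.09 (adjusted p = 0.102), the last of which was 0.06 under median scaling. Without NLS-GFP replicate 3 the NET29 fragment value was -0.54 (adjusted p = 0.00478), past both limits. NLS-GFP cells themselves were 0.24 ± 0.08 above untreated cells (adjusted p = 0.156), and 0.02 above them under median scaling.

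The difference between the effect of the full-length protein and that of its fragment was tested directly. For MYC it was 0.80 ± 0.12 for NET29 (adjusted p = 0.000192) and 0.78 ± 0.12 for NET39 (adjusted p = 0.000369), and 0.37 ± 0.12 for NET47 (adjusted p = 0.413). MYC was the 1 gene of 9 past the threshold for NET39, where 2.3% of all genes passed, and 0 of 9 passed for NET47, where 0.723% did. In both calls the line was above its control and the fragment below its own, and the contrast uses the NLS-GFP arrays, in which MYC was above untreated cells. Under median scaling the contrasts were 1.39 for NET29 (adjusted p = 0.0712) and 0.90 for NET39 (adjusted p = 0.627) and did not pass. Averaged over both MYC probes they were 0.46 for NET29 (adjusted p = 0.0353) and 0.37 for NET39 (adjusted p = 0.184), and neither passed. With NLS-GFP cells as the control of the lines, MYC in the NET39 line was 0.31 higher (adjusted p = 0.0188), under the limit of 0.5.

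Between lines MYC was lower in the NET47 line than in the NET39 line, by -0.52 ± 0.08 on the log2 scale (adjusted p = 0.000487), with no overlap. It was 1 of 9 genes past the threshold there, where 2.39% of all genes passed. This value was close to the limit of 0.5 and fell short of it without NET39 line replicate 3 (-0.48) or NET47 line replicate 3 (-0.47). Under median scaling it was -0.56 (adjusted p = 0.875), and averaged over both MYC probes -0.32 (adjusted p = 0.0495), and neither passed. The NET47 line minus the NET29 line was -0.29 ± 0.08 (adjusted p = 0.094) and the NET39 line minus the NET29 line 0.23 ± 0.08 (adjusted p = 1), also without overlap, and 0 of 9 genes passed in either, where 2.33% and 0.171% of all genes did. In order of MYC level the groups were the NET39 line (mean 10.24), the NET29 line (10.01), NLS-GFP cells (9.93), the NET47 line (9.72), the NET39 fragment (9.69), untreated cells (9.69), the NET47 fragment (9.59) and the NET29 fragment (9.45), and only the first 2 did not overlap as neighbours.

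The second MYC probe, ILMN_2110908, did not show these differences. It read 7.31, 7.43, 7.40 and 7.71 in the NET39 line, against 7.50, 7.40, 7.35 and 6.96 in untreated cells, and the groups overlapped (0.16 ± 0.12, adjusted p = 0.731, interval -0.09 to 0.41). The interval lay in part below that of the first probe, 0.39 to 0.71. With the NET29 fragment the second probe read 7.34, 7.31 and 7.63, against 7.30, 7.44 and 7.54 in NLS-GFP cells (0.00 ± 0.14, adjusted p = 1). Its spread between arrays of a group was an SD of 0.186, against 0.112 for the first. Averaged over both probes MYC was 0.36 higher in the NET39 line (adjusted p = 0.00751), under the limit of 0.5.

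**Figure D4:**
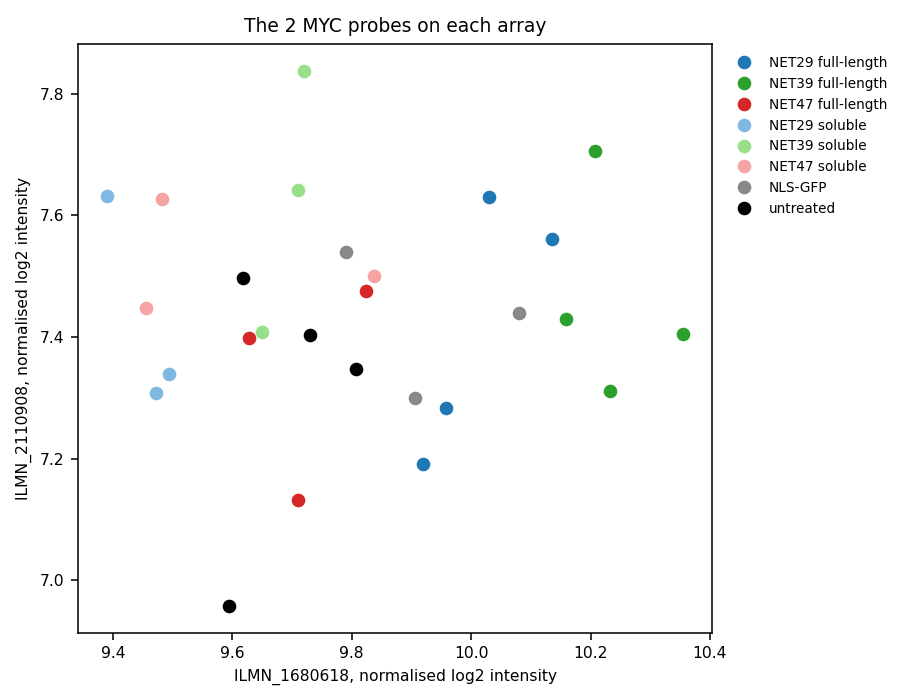
Normalised log2 intensity of the 2 MYC probes on each of the 27 arrays, ILMN_1680618 on the x axis and ILMN_2110908 on the y axis, coloured by group. The NET39 line lies at 10.16 to 10.36 on the x axis, to the right of the other groups, and at 7.31 to 7.71 on the y axis, within the range of the other groups.

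The genes whose pattern over the 27 arrays was most like that of MYC, among 11887 detected genes, were DBNDD2 (Pearson r = 0.869), ARMC8 (0.862) and ST3GAL1 (0.86). The arrays share their groups, so this describes a pattern of group means as well as of single arrays. Among the immediate early genes the highest correlation was that of FOS with MYC (0.583 over 27 arrays) and the lowest that of FOSL1 with MYC (-0.504). FOS was above background on only 13 of these arrays, and MYC was read by its brighter probe alone.

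IER2, a small nuclear protein induced with FOS and JUN, was above background on all arrays. It read 6.32, 6.81 and 6.91 in NLS-GFP cells, against 7.04, 7.33, 7.27 and 6.91 in untreated cells, with a log2 fold change of -0.46 ± 0.15 (adjusted p = 0.138). The groups did not overlap, but the highest NLS-GFP array and the lowest untreated array both rounded to 6.91. The NET39 fragment (6.73, 6.62 and 6.94) and the NET47 fragment (6.68, 6.68 and 6.53) were at a similar level to NLS-GFP cells (0.08 ± 0.17 and -0.05 ± 0.17, adjusted p = 0.937 and 0.985), whereas the NET29 fragment read 7.35, 7.07 and 6.74 (0.37 ± 0.17, adjusted p = 0.304). In the lines IER2 differed from untreated cells by -0.01 ± 0.14, -0.01 ± 0.14 and 0.12 ± 0.15 for NET29, NET39 and NET47 (adjusted p = 0.994, 0.996 and 0.986).

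Other immediate early genes passed the threshold in both directions. Of 32 listed, 30 were measured: 3 rose and 5 fell in the NET29 line, where 3.35% of all genes passed, 6 rose and 5 fell in the NET39 line, where 3.79% did, and 1 rose in the NET47 line, where 1.22% did, with median log2 fold changes of 0.01, 0.00 and -0.02. SGK1, a serum- and glucocorticoid-induced kinase, rose in the NET29 line (0.70 ± 0.09, adjusted p = 9.7e-06) and in the NET39 line (0.54 ± 0.09, adjusted p = 0.000263). MCL1, a short-lived survival factor, rose by 0.61 ± 0.12 and 0.76 ± 0.12 (adjusted p = 0.00251 and 0.000184). PTGS2, the inducible cyclooxygenase, and IER5L fell in the NET29 line (-1.20 ± 0.22 and -0.65 ± 0.12, adjusted p = 0.00144 and 0.00143), and PLK2 and HES1 fell in the NET39 line (-0.83 ± 0.14 and -0.66 ± 0.11, adjusted p = 0.00034 and 0.000419). In the NET47 line IER5, a serum-induced regulator of phosphatase, rose by 0.58 ± 0.10 (adjusted p = 0.00243). SGK1 also differed between full-length and fragment effects for NET29 (1.13 ± 0.13, adjusted p = 9.64e-06), with KLF6 (1.13), PLK2 (-0.99) and RHOB (-0.79), and for NET39 (0.64 ± 0.13, adjusted p = 0.0113). In all 3 rose and 4 fell in that contrast for NET29, 1 rose for NET39 and 0 passed for NET47, where 5.37%, 2.3% and 0.723% of all genes passed.

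Under median scaling 0 of the 30 passed in any of these comparisons, with every named gene on the same side of 0. The counts also depended on single arrays, and each was repeated with every array of its groups, and then the 3 arrays that stood apart, left out. In the NET39 line 2 genes rose without NET39 line replicate 1, and without untreated replicate 2 the NET29 line had 5 up and 3 down and the NET39 line 5 up and 3 down. The calls for SGK1 and PTGS2 in the NET29 line and for MCL1, PLK2 and HES1 in the NET39 line held in 9 of 9 such settings, whereas SGK1 in the NET39 line held in 6 of 9 (lost without untreated replicate 4, NET39 line replicate 1 or the 3 arrays), MCL1 in the NET29 line in 7 of 9 (lost without untreated replicate 4 or the 3 arrays) and IER5L in the NET29 line in 8 of 9. In the NET47 line 2 rose without untreated replicate 2 or 3, and 2 fell without untreated replicate 4. Without the 3 arrays that stood apart the counts were 3 up and 3 down in the NET29 line and 3 up and 4 down in the NET39 line. With the fragments 0 rose, and 1 fell for NET29 (DUSP1, -0.79 ± 0.17), 0 for NET39 and 1 for NET47 (PTGS2, -1.23 ± 0.26), where 1.33%, 0.145% and 1.17% of all genes passed, calls that held in 2 of 7 and 3 of 7 such settings. In NLS-GFP against untreated cells 1 fell (CCN1, -0.52 ± 0.12), where 1.11% of all genes passed, a call that held in 2 of 8.

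Among 13 measured zipper partners of FOS and JUN (16 listed), BATF3, a small JUN-binding factor, rose in the NET29 line (0.74 ± 0.11, adjusted p = 0.000119) and in the NET39 line (0.95 ± 0.11, adjusted p = 2.98e-06), and 0 passed in the NET47 line or with any fragment. The shares of all genes past the threshold were 3.35% in the NET29 line, 3.79% in the NET39 line and 1.22% in the NET47 line, and 1.33%, 0.145% and 1.17% with the NET29, NET39 and NET47 fragments, for this list and for those that follow. Of 15 measured AP-1 target genes (16 listed), 2 rose and 1 fell in the NET29 line and 1 rose and 2 fell in the NET39 line. MMP3, which encodes stromelysin and has an AP-1 site in its promoter, rose by 2.12 ± 0.26 in the NET29 line and 2.55 ± 0.26 in the NET39 line (adjusted p = 7.94e-06 and 4.46e-07), and SPP1, for osteopontin, rose by 1.42 ± 0.18 in the NET29 line (adjusted p = 1.34e-05). MMP9 fell in the NET29 and NET39 lines (-1.57 ± 0.39 and -1.93 ± 0.39, adjusted p = 0.0216 and 0.003), and it was above background on 4 of 4 and 2 of 4 arrays of these lines, against 3 of 4 in untreated cells. CXCL8, the neutrophil chemokine, fell in the NET39 line (-1.34 ± 0.38, adjusted p = 0.0451), in the NET47 line (-2.11 ± 0.41, adjusted p = 0.00583) and with the NET47 fragment (-3.055 ± 0.43, adjusted p = 0.000189). MMP9 in the NET29 line and CXCL8 in the NET39 line each held in 2 of 9 such settings, and CXCL8 in the NET47 line was lost without NET47 line replicate 3. Under median scaling BATF3 and MMP9 in the NET39 line, MMP3 in both lines and SPP1 passed, and the other calls of these lists against a control did not.

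For MYC, 1 of 10 partner genes fell and 1 of 14 target genes rose in both the NET29 and the NET39 line, where 3.35% and 3.79% of all genes passed, and 0 passed in the NET47 line or with the fragments. The partner was MXD4, a MAX-binding antagonist of MYC, at -1.03 ± 0.17 and -1.22 ± 0.17 (adjusted p = 0.00027 and 2.58e-05). The target was ODC1, which encodes ornithine decarboxylase, at 1.00 ± 0.18 and 1.09 ± 0.18 (adjusted p = 0.000931 and 0.000302). Both genes held in 9 of 9 such settings in each line, and the other 13 targets did not pass. Under median scaling MXD4 passed in the NET39 line (-1.18, adjusted p = 0.0131) and ODC1 in neither. The median log2 fold change of the 14 targets was 0.03 in the NET29 line and 0.04 in the NET39 line.

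Of the kinases and factors that signal to immediate early genes, 16 of 22 listed were measured and 0 passed in the 7 comparisons with a control (MAPK9 passed in the full-length minus fragment contrast for NET29, at 0.67), and likewise 0 of 6 EGR1 co-repressors and targets. Of 12 genes of the integrated stress response, in which ATF3 acts, 0 passed in the lines, ASNS fell with the NET29 fragment (-0.75 ± 0.17, adjusted p = 0.0277) and DDIT3 rose in NLS-GFP cells (0.71 ± 0.16, adjusted p = 0.0241), calls that held in 2 of 7 and 3 of 8 such settings. Of 8 interferon-response genes, which foreign DNA can induce, MX1 and IFI27 fell in the NET29 line and in the NET39 line, and MX1 fell with the NET47 fragment (-1.19), and 0 passed in NLS-GFP against untreated cells. MX1 was -1.42 in the NET29 line and -1.70 in the NET39 line, and IFI27 was above background on 1 of 4 and 0 of 4 arrays of these lines, against 4 of 4 in untreated cells, so no size is given for it. Whether that response has a part in the levels of the immediate early genes was not tested.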

How the data were processed

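The authors extracted total RNA with TRIzol, labelled it as biotin cRNA and hybridised it to Illumina bead arrays. The deposited intensity table, 48803 probes without normalisation, was the source of every main value, and the log2 table the authors deposited after quantile normalisation served as an alternative (48802 probes, median 5.88 on every array). Of the probes, 27577 carried 1 gene, 13 several and 21213 none, and the brightest probe stood for each of the 18666 genes.

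Normexp background correction (offset 50), quantile normalisation and log2 were applied with limma 3.58.1 under R 4.3.3. Of the intensities, 1 was at or below 0. 1 model of 8 group means took in all 27 arrays and left 19 residual degrees of freedom. Each of 16 contrasts was tested with limma, and a call needed both an adjusted p under 0.05 and a change beyond 0.5 on the log2 scale. These cut-offs are the study's, which however selected by moderated F-statistics with NLS-GFP and untreated cells as reference, whereas here each contrast was tested on its own and a comparison with a control used 1 control group. The fitting was checked on simulated data. The number of arrays limits the precision. Background correction, scaling, samples in the model, probe summary, control group, array weights, a replicate block and each array left out were alternatives, and those for the related lists were added after the data had been seen.

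All listed genes and their probes are named. Genes of related lists, drawn up from general knowledge, are named where they passed, up to 4 per list and comparison by adjusted p. The listed genes, the related lists and the tests were chosen with earlier results of these data known. In the related lists a fold change of each gene named kept its sign under median scaling and cyclic loess.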

Additional observations from a re-analysis of the deposited data

Results flagged for a closer look

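In the NET39 line, EGR1 in replicate 2 (6.71, against 6.43 to 6.48 on the other 3 arrays) stood apart from its group, with a gap to the nearest array of 0.844 of the group's range. It was the 1 flag among 33 such tests of the probes, and chance flags about 1 in 20 groups. In the other groups so tested, the NET29 line and untreated cells, EGR1 was also highest in replicate 2 (6.31 and 6.71). Whether these arrays share an effect of the replicate was not tested.

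The effects of full-length protein and soluble fragment differed for MYC with NET29 (0.80 on the log2 scale) and NET39 (0.78), in both with the line above untreated cells and the fragment below NLS-GFP cells, and for FOSL1 with NET29 (-0.80), where the signs were the other way. Averaged over both MYC probes the 2 MYC differences were 0.46 (adjusted p = 0.0353, limma) and 0.37 (adjusted p = 0.184), neither past the threshold. By the sample labels the mode of expression also differs between line and fragment, and it cannot be told apart from the form of the protein, although the study's text in one place calls the fragment cells stable.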

How the results depend on the processing

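Of the alternatives of single genes, 3845 gave the same call, 41 lost a call, 19 gained one and 1 changed the sign of a called value: FOSL1 between the NET47 and NET29 fragments, 0.18 under median scaling. In the main fit 3708 of these values were not called, so the same call mostly means a value that stayed uncalled. Of the 3708, 167 changed sign. MYC kept its call in the NET39 line in 18 of 22 alternatives. In the NET29 and NET39 full-length minus fragment contrasts it kept it in 36 of 38 each, and between lines in 26 of 31. FOSL1 kept its call in 14 of 38 in the NET29 contrast and 26 of 31 between fragments. Except in the NET39 line, some of these alternatives left out arrays of groups outside the contrast. Median scaling moved the number of all genes past the threshold to 247, 291 and 94 in the NET29, NET39 and NET47 lines, against 626, 707 and 228, and to 3452 between the NET47 and NET29 fragments, against 625. Under it 0 of the immediate early genes passed in the NET39 line and 0 in the 3 contrasts of full-length minus fragment effect. In these contrasts MYC was 1.39 for NET29 (adjusted p = 0.0712) and 0.90 for NET39 (adjusted p = 0.627), and in the NET39 line 0.62 (adjusted p = 0.34). Between those fragments it brought JUN (1.24), MYC (1.03) and JUNB (0.58) past the threshold. With the mean over the probes of a gene 0 passed in the NET39 line, 1 in the full-length minus fragment contrasts and 1 in the 6 comparisons between lines or between fragments. With NLS-GFP as the control of the lines 0 passed for NET39 and 1 for NET47 (IER2, 0.57), and with both controls pooled 0 passed for NET39 (MYC 0.45). Array weights gave 1 in the NET29 line (JUN, 0.76) and 1 with the NET29 fragment (MYC, -0.50), and a model of only the groups compared gave 1 with the NET39 fragment (JUN). Without the 3 arrays that stood apart, 1 passed in the NET29 line, 2 in the NET39 line, 1 in NLS-GFP cells and 1 between lines or fragments. With single arrays left out the number ranged from 0 to 1 in the NET29 line, 1 to 2 in the NET39 line, 0 to 2 with the NET29 fragment, 0 to 1 in NLS-GFP cells, 2 to 4 in the full-length minus fragment contrasts and 1 to 2 between lines or fragments, and was 0 throughout in the NET47 line and with the NET39 and NET47 fragments. A replicate block left 1 gene in the NET39 line, 3 in the full-length minus fragment contrasts, 2 between lines or fragments and 0 elsewhere, as without it. Arrays of the same number but different groups correlated at 0.0522 on average in their deviations from group means (87 pairs, -0.665 to 0.671). For arrays of different number and group the mean was -0.0152 (231 pairs). These means pool all groups, so they do not decide whether the number pairs arrays within some of them. FOS and EGR1, close to background, are those for which the signal limits detection most.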
